A study of Mus musculus with 12 samples.

Results

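In a study of mouse embryonic stem cell derived neurons, 6 of the 12 arrays are described here, namely those of the knockdown lines siPRMT1 and siPRMT8, split by the level of Dnmt3l. The kinds were chosen by the deposited Dnmt3l value of each array and by nothing else. The 3 arrays with a deposited Dnmt3l log2 value of at least 8.0 were siPRMT1 replicates 1 and 3 and siPRMT8 replicate 2, and they are called the high-Dnmt3l arrays. The 3 arrays below 7.0 were siPRMT1 replicate 2 and siPRMT8 replicates 1 and 3, and they are called the low-Dnmt3l arrays. Each line therefore contributed arrays of both kinds. Dnmt3l read 9.65, 9.23 and 8.08 in the high-Dnmt3l arrays and 6.40, 6.55 and 6.61 in the low-Dnmt3l arrays, so that siPRMT8 replicate 2 lay just inside the threshold of 8.0 and siPRMT8 replicate 3 just below that of 7.0. Here and below, high-Dnmt3l values are given in the order siPRMT1 replicate 1, siPRMT1 replicate 3, siPRMT8 replicate 2, and low-Dnmt3l values in the order siPRMT1 replicate 2, siPRMT8 replicate 1, siPRMT8 replicate 3.

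All 12 samples were D3 mouse embryonic stem cells, differentiated by way of embryoid bodies and collected on day 16. The groups were the line labelled siPRMT1 and the line labelled siPRMT8, in which a protein arginine methyltransferase was targeted, a control line carrying a scrambled sequence (siSCR), and D3 cells with no treatment, each with 3 replicates. Each group is 1 line. The labels do not say whether replicates were separate differentiations, and the p-values below cover no more than the spread among these arrays. The labels give no difference in handling between the high-Dnmt3l and the low-Dnmt3l arrays. Because a measured value sorted the arrays, high and low are compared as a description with no p-value, and Dnmt3l is left out of every count except where it is named. A difference is the mean of the 2 within-line differences on the log2 scale, high minus low.

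The targeted genes were read first. Prmt1, the main enzyme for asymmetric arginine dimethylation, read 7.72, 7.95 and 7.59 in siPRMT1 replicates 1 to 3, against 9.27, 9.20 and 9.27 in siPRMT8 and 8.84, 8.74 and 8.86 in siSCR. Its low values in all 3 siPRMT1 arrays were shared by the arrays of both Dnmt3l kinds. For Prmt8, a brain-enriched member of the same family, the siPRMT8 values were 6.44, 6.17 and 6.44 and the siPRMT1 values 6.35, 6.89 and 6.67, against 6.60, 7.18 and 7.10 in siSCR. The siPRMT8 arrays lay below the siSCR arrays for Prmt8, but siPRMT1 replicate 1 did as well.

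The samples are labelled as neurons, but 9 markers of pluripotent stem cells averaged 10.04 to 10.38 in the high-Dnmt3l arrays, 9.37 to 9.73 in the low-Dnmt3l arrays, 10.06 to 10.29 in siSCR and 9.84 to 9.97 in D3. Transcripts of pluripotency genes were thus present in all 12 samples. The mean of 11 pan-neuronal markers was 8.40 to 8.76 in the high-Dnmt3l arrays and 8.60 to 8.69 in the low-Dnmt3l arrays, against 8.57 to 9.70 in siSCR and 9.61 to 9.76 in D3. The neuronal means of high and low arrays overlapped. The low end of the siSCR range is siSCR replicate 1, which stood apart from the other siSCR arrays (Snap25, a synaptic release protein, read 8.85 there against 10.47 and 10.34). These are bulk samples, in which fewer cells of a type and less RNA per cell cannot be told apart. The array medians of all kinds lay between 6.48 and 6.51, and the interquartile ranges were 2.99 to 3.04 in the high-Dnmt3l arrays, 2.89 to 3.04 in the low-Dnmt3l arrays and 3.06 to 3.13 in the control arrays.

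Dnmt3l encodes a partner of the DNA methyltransferases Dnmt3a and Dnmt3b that has no catalytic activity of its own and is made in germ cells and in mouse embryonic stem cells. Many genes for meiosis and for the piRNA pathway are kept silent in somatic cells by methylation of their promoters and by repressors such as the E2f6 and Mga complexes, and stem cells grown under naive conditions transcribe part of them. As stem cells leave the naive state, genes such as Fbxo15 and Esrrb are turned off, and genes such as Fgf5, Wnt8a and the Mir302 cluster, whose microRNAs regulate the cell cycle and lineage choice, come on before neural genes do.

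The promoters of 3 germline genes with some of the largest differences are shown first because promoters of such genes are known to carry methylated CpG sites in somatic cells. They are read from RefSeq's GRCm38.p6, 250 bases before to 50 bases after the start, on the strand of the gene, with each CG in capitals. Dazl lies at chr17:50293571-50293870 (minus strand), Mael at chr1:166238695-166238994 (minus strand) and Sycp3 at chr10:88459337-88459636 (plus strand).
Dazl: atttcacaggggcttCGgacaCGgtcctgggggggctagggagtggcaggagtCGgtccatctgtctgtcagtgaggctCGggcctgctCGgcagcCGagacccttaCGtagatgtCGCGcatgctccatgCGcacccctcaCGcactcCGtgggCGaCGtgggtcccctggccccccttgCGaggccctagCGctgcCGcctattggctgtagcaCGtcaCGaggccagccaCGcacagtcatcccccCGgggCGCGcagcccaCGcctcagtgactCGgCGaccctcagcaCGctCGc
Mael: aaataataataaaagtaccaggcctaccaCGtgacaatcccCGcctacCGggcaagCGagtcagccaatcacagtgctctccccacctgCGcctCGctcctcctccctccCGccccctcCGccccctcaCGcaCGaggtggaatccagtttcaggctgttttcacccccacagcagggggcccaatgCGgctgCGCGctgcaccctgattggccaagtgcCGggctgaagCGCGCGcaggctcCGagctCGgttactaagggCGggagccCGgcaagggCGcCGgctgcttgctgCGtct
Sycp3: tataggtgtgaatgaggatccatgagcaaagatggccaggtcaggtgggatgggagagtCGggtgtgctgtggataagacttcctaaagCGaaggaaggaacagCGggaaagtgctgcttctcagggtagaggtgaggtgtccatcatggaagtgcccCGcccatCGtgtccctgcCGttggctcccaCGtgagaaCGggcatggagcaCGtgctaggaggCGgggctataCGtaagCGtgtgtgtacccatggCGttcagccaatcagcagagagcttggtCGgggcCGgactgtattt
These windows held 28 CG in Dazl, 24 in Mael and 15 in Sycp3, against a median of 21 over the 11778 tested genes with a promoter in the table. No methylation was measured in this study, so the counts describe the sequence only.

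The mature microRNAs of Mir302b, Mir302c, Mir302d and Mir367 are shown, and that of Mir302a is named only, because the precursor probe sets of this cluster differed in the opposite direction, lower in the high-Dnmt3l arrays. Of the 5 probe sets only that of Mir302d passed the filter on low values. The 5 hairpins lie within 580 bases on the plus strand of chromosome 3 in GRCm38.p6, inside the span of Larp7. The seed, bases 2 to 8, is in capitals, and the sequences are from RefSeq.
miR-302b-3p: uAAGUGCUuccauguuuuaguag
miR-302c-3p: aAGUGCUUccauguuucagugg
miR-302d-3p: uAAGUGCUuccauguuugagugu
miR-367-3p: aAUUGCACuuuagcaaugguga
The first 3 of these carry the same run AAGUGCUU, which starts at base 1 in miR-302c-3p as listed and at base 2 in the others, whereas miR-367-3p has a seed of its own. They lie at chr3:127545275-127545297, chr3:127545406-127545427, chr3:127545665-127545687 and chr3:127545779-127545800.

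Meiotic and other germline genes led the group that was higher in the high-Dnmt3l arrays, with Dazl, Mael, Sycp3, Hormad2 and Smc1b among its largest differences. Of 14953 genes tested, 36 besides Dnmt3l were at least 2-fold higher with no overlap between the 3 high and the 3 low arrays, and 6 were at least 2-fold lower (0.247% of all genes with Dnmt3l counted, and 0.0401%). At 1.5-fold the counts were 212 with Dnmt3l (1.42%) and 36 (0.241%). Of the 36, 11 were on a list of germline or X-linked reproductive genes, 2 more on a list of pluripotency genes and 23 on neither. The germline and X-linked lists held 59 of the 14953 genes tested. Leaving out Dnmt3l throughout, the counts were 1 (Npy) and 1 (Mir302d) without siPRMT1 replicate 2. They were 130 and 23 without siPRMT8 replicate 2, the high-Dnmt3l array nearest to the threshold. Leaving out either of these arrays leaves its line with 1 kind only. The difference is then that of the other line alone, and these counts are not of the same measure. Without siPRMT1 replicate 1, where both lines keep both kinds, the counts were 32 and 2. Since Dnmt3l sorted the same arrays, these counts describe the split and test nothing.

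Dazl, an RNA-binding protein needed for germ cell development, read 7.83, 7.32 and 6.36 in the high-Dnmt3l arrays, against 5.13, 5.33 and 5.46 in the low-Dnmt3l arrays. Mael, a piRNA pathway protein of germ granules, read 9.50, 9.22 and 8.45 in the high-Dnmt3l arrays, against 6.92, 7.61 and 7.80 in the low-Dnmt3l arrays. For both genes the kinds did not overlap, siPRMT8 replicate 2 was the lowest of the high arrays and siPRMT1 replicate 2 the lowest of the low ones. The difference was 1.71 for Dazl, made up of 2.45 within siPRMT1 and 0.96 within siPRMT8, and 1.59 for Mael, made up of 2.44 and 0.75. Both genes were picked as markers of the split from these same data, so their separation is no independent support for it.

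The genes of the meiotic chromosome axis and of cohesion formed the next set. Sycp3, a component of the synaptonemal complex, read 7.59, 7.34 and 7.13 in the high-Dnmt3l arrays, against 5.29, 6.22 and 6.49 in the low-Dnmt3l arrays (difference 1.47). Hormad2, a HORMA domain protein of the unpaired chromosome axis, read 7.57, 7.30 and 7.08, against 5.38, 6.09 and 6.34 (difference 1.46). Smc1b, the meiotic cohesin subunit, read 7.20, 6.87 and 6.34, against 4.96, 5.29 and 5.74 (difference 1.45). In all 3 genes siPRMT1 replicate 2 was the lowest of the 12 arrays, and the kinds did not overlap. The 6 control arrays read 6.65 to 7.06 for Sycp3, 7.22 to 7.65 for Hormad2 and 6.52 to 7.13 for Smc1b. Meioc, which stabilises the meiotic programme in prophase, read 9.15, 8.69 and 8.29 in the high-Dnmt3l arrays, against 7.03, 7.52 and 7.90 in the low-Dnmt3l arrays. Of the 33 meiosis genes listed, 32 were on the array and 20 passed the filter on low values. Of these 20, 13 were higher without overlap and 1, Tex15, was lower (median difference 0.28). The same kind of separation at any size held for 13.6% of all genes upward and 10.8% downward, and the median over all genes was -0.01. These shares are the ones to set beside every count of separated list members below.

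Genes of the piRNA pathway and other germline genes showed the direction of Dazl in part. Of 14 piRNA and germ granule genes that passed the filter, 8 were higher without overlap and 0 were lower, with a median of 0.16, and over all 23 on the array the median was 0.05. Tdrd12, a Tudor domain protein of piRNA amplification, read 8.74, 8.62 and 8.61 in the high-Dnmt3l arrays, against 7.22, 8.19 and 8.42 in the low-Dnmt3l arrays. Ddx4, the Vasa helicase of germ granules, read 7.11, 7.02 and 6.81, against 6.09, 6.47 and 6.53. The differences were 0.88 and 0.64, smaller than those of Dazl and Mael, and within siPRMT8 alone they were 0.30 and 0.31. Piwil2, a Piwi protein of fetal germ cells, differed by 0.20 with overlap, and Tdrd9 and Tdrkh by -0.22 and -0.25 with overlap (all 3 named after their values were seen). Of 19 other germline genes sensitive to DNA methylation, 10 were higher without overlap and 0 lower (median 0.35, and 0.24 over all those on the array), among them Hsf2bp, a partner of the meiotic recombination machinery, at 1.03, and Tex14, a protein of germ cell bridges, at 0.76. Tex101, a germ cell surface protein, overlapped (0.10).

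X-linked and less studied members were among the largest differences. AU018091 read 9.56, 9.12 and 7.93 in the high-Dnmt3l arrays, against 6.97, 7.11 and 6.80 in the low-Dnmt3l arrays (difference 1.68). Scml2, a Polycomb protein of the male germline, read 8.48, 8.28 and 7.55, against 6.52, 6.73 and 6.64 (difference 1.37). Usp26, an X-linked ubiquitin protease of the testis, read 9.05, 8.69 and 7.85, against 7.03, 7.15 and 7.09 (difference 1.29). These 3 genes had nearly the same value in all 3 low-Dnmt3l arrays and a graded value in the high ones, a pattern shared with Dnmt3l itself. In Morc1, which is needed for transposon silencing in male germ cells, the grading was in the low arrays, at 6.04, 7.21 and 7.38 against high values of 8.28, 7.96 and 7.75. Lrrc34 and Inpp5d, the inositol phosphatase SHIP1, differed by 1.28 and 1.26.

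**Figure D1:**
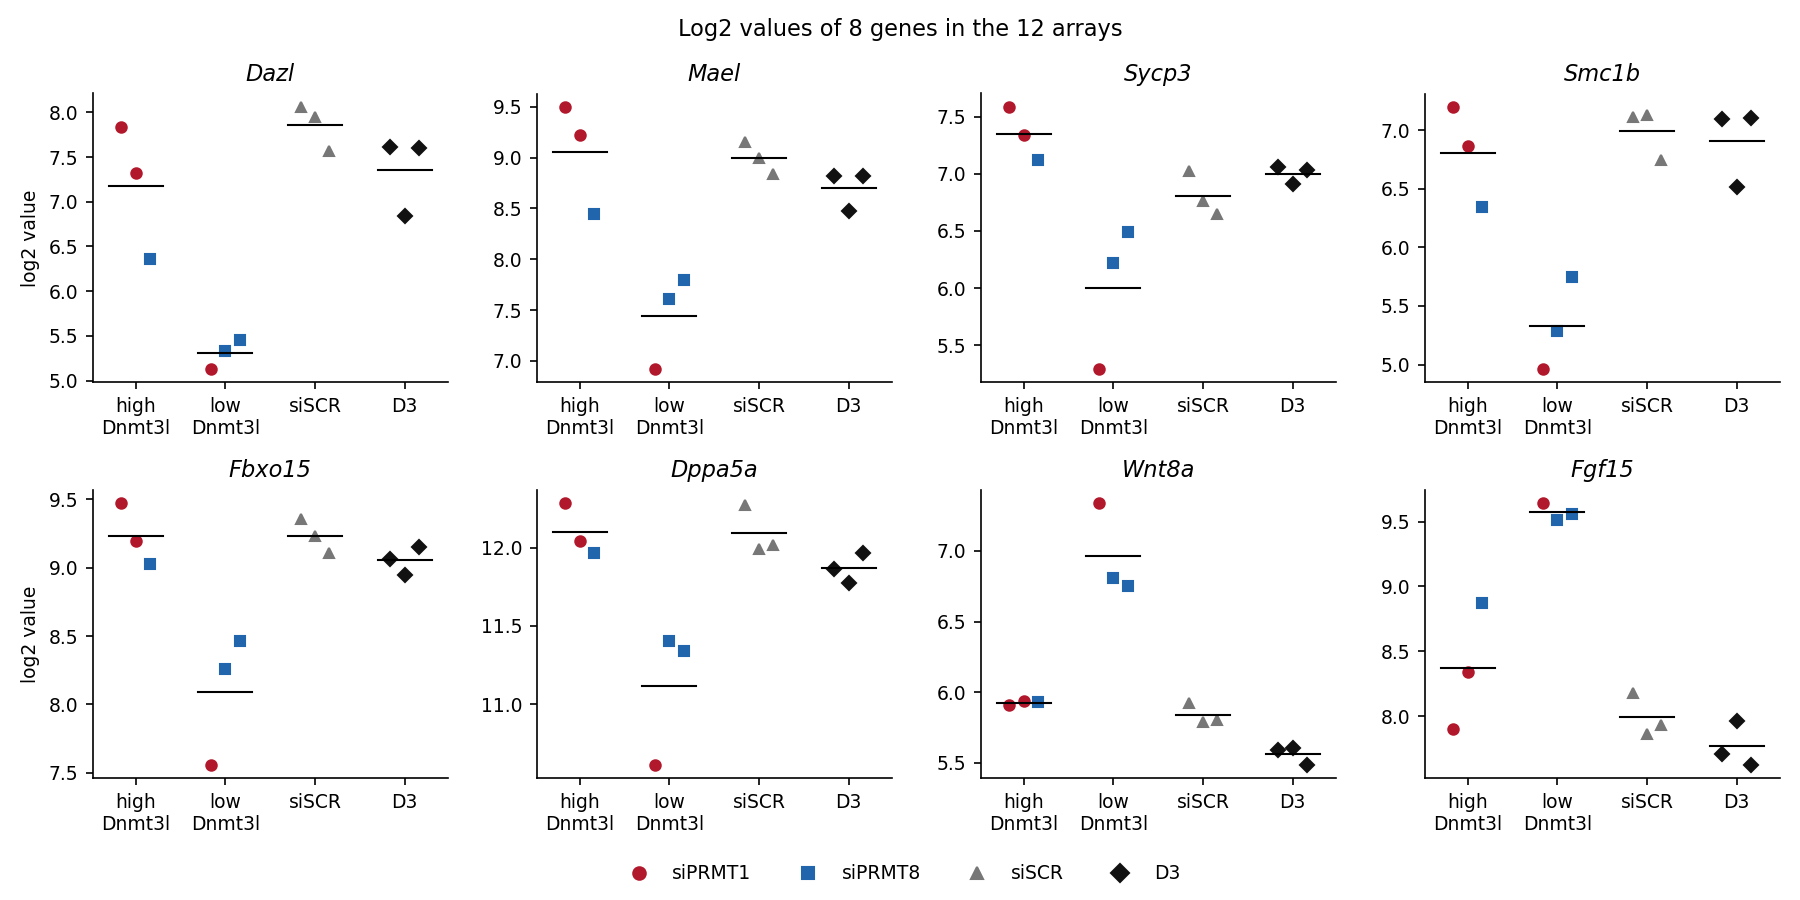
Deposited log2 values (vertical axis) of 8 genes in the 12 arrays, in the order high-Dnmt3l, low-Dnmt3l, siSCR and D3; symbols mark the line and the horizontal bars the means of 3 arrays. The high-Dnmt3l arrays lie above the low-Dnmt3l arrays for Dazl, Mael, Sycp3, Smc1b, Fbxo15 and Dppa5a and below them for Wnt8a and Fgf15.

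Naive pluripotency genes were the list with the highest share of members on one side. Of 21 members that passed the filter, 17 were higher in the high-Dnmt3l arrays without overlap and 1, Gbx2, was lower with a difference of -0.11 (median difference 0.52). Fbxo15, an F-box protein and Oct4 target, read 9.47, 9.19 and 9.03 in the high-Dnmt3l arrays, against 7.56, 8.26 and 8.46 in the low-Dnmt3l arrays. Dppa5a, an RNA-binding protein of pluripotent cells, read 12.29, 12.04 and 11.96, against 10.61, 11.40 and 11.34. Both genes separated without overlap, with differences of 1.22 and 1.07. Pecam1, an adhesion molecule of naive stem cells and endothelium, and Fgf4, the growth factor that stem cells secrete, differed by 0.97 and 0.96. For Pecam1 the other endothelial markers give a mixed picture, with Tek higher by 0.37 and Cdh5 and Kdr overlapping at 0.09 and -0.26.

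Nanog and Esrrb separated the kinds by less than the genes above, and Pou5f1 and Sox2 overlapped. Nanog, a homeodomain factor, read 11.23, 10.91 and 11.00 in the high-Dnmt3l arrays, against 10.37, 10.68 and 10.65 in the low-Dnmt3l arrays (difference 0.52). Esrrb, an orphan nuclear receptor of the naive network, read 9.81, 9.64 and 9.46, against 8.59, 9.12 and 9.05 (difference 0.76). Pou5f1, the Oct4 gene, read 10.52, 10.34 and 10.18, against 10.04, 10.19 and 10.16 (difference 0.20). For Pou5f1, siPRMT8 replicate 2 lay among the low arrays, and Sox2, its partner, differed by 0.24. Of 29 core and effector genes that passed the filter, 15 were higher and 2 lower without overlap (median 0.25), and the 2 lower ones were Lin28a and Trh. Among regulators of primordial germ cells, 9 of 14 were higher and 1, Lin28a again, lower without overlap (median 0.33). Dppa3, which protects the maternal genome from demethylation, read 6.71, 6.43 and 6.02 in the high-Dnmt3l arrays, against 5.52, 5.60 and 5.63 in the low-Dnmt3l arrays.

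Enzymes that write and remove DNA methylation differed less than Dnmt3l. Dnmt3a, Dnmt3b and Dnmt1, named here as the methyltransferases whatever their values, overlapped at differences of 0.02, -0.33 and -0.10. Tet1, a dioxygenase that oxidises methylcytosine, read 10.93, 10.69 and 10.42 in the high-Dnmt3l arrays, against 9.73, 10.16 and 10.09 in the low-Dnmt3l arrays (difference 0.69). Tet2 differed by 0.34 and Tet3 by -0.31, both without overlap. Tet1 and Tet2 thus lay on the side of Dnmt3l and Tet3 on the other. Over the list, 5 of 18 members were higher and 1 lower without overlap, with a median of 0.02. Of 16 repressors of germline genes, 2 were higher (Mga 0.29 and Pcgf6 0.24) and 2 lower (E2f6 -0.19 and Max -0.08), all with differences smaller in size than that of Tet1. Those counts were near the shares over all genes, of which 13.6% were higher and 10.8% lower without overlap.

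Some genes of formative pluripotency and of early neural fate lay on the opposite side. Wnt8a, a Wnt ligand of the primitive streak stage, read 5.91, 5.94 and 5.93 in the high-Dnmt3l arrays, against 7.34, 6.81 and 6.75 in the low-Dnmt3l arrays. Fgf15, a fibroblast growth factor of the embryonic neural tube, read 7.90, 8.34 and 8.87, against 9.65, 9.51 and 9.56. The differences were -1.13 and -1.10. Wnt8a was flat among the high arrays, at the level of the siSCR arrays (5.79 to 5.92), and Fgf15 was graded, with siPRMT8 replicate 2 nearest to the low arrays.

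Prtg, a receptor of the DCC family found on early neural and mesodermal cells, read 8.29, 9.06 and 9.03 in the high-Dnmt3l arrays, against 10.18, 9.64 and 9.56 in the low-Dnmt3l arrays (difference -1.04). Pim2, a serine/threonine kinase, read 8.32, 8.78 and 8.46, against 9.60, 9.45 and 9.40 (difference -1.01). Pim2 differed almost equally within siPRMT1 and within siPRMT8, by -1.05 and -0.96, whereas Prtg differed by -1.50 and -0.57. The remaining 2-fold lower transcripts fell outside the naming rule and are named because the count was small. They are the predicted gene Gm32061 (6.92, 8.14 and 8.68 in the high-Dnmt3l arrays, against 9.36, 9.16 and 9.56 in the low-Dnmt3l arrays) and Mir302d.

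Of 17 formative and primed genes that passed the filter, 7 were lower and 2 higher without overlap, with a median of -0.31. Fgf5, the classic marker of the epiblast after implantation, read 7.63, 7.82 and 7.59 in the high-Dnmt3l arrays, against 8.28, 8.23 and 8.06 in the low-Dnmt3l arrays. Eomes, a T-box factor, and Sall2 differed by -0.59 and -0.62. The list was split, since Otx2, a homeodomain factor of the formative state and forebrain, was higher by 0.44 and the tight junction gene Cldn6 higher by 0.87. Lin28a, which blocks maturation of the let-7 microRNAs, read 7.76, 7.98 and 7.64 in the high-Dnmt3l arrays, against 8.68, 8.06 and 8.08 in the low-Dnmt3l arrays. Of 14 genes linked to Lin28 and let-7, 6 were lower and 0 higher without overlap (median -0.17), among them Igdcc3 (-0.59) and Igf2bp3 (-0.37).

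The Mir302 and Mir367 probe sets were examined after their values had been seen, since the naming rule left out small RNAs. They read the precursor or its host transcript, not the mature microRNA printed above. Mir302a read 4.04, 5.12 and 5.47 in the high-Dnmt3l arrays, against 6.47, 7.08 and 7.30 in the low-Dnmt3l arrays. Mir302d read 5.48, 5.87 and 6.43, against 7.21, 7.78 and 8.01. Mir367 read 2.66, 2.76 and 3.36, against 3.86, 4.53 and 4.96. All 5 probe sets of the cluster were lower in the high-Dnmt3l arrays without overlap, with log2 differences of -1.80 for Mir302a, -1.67 for Mir302c, -1.50 for Mir302d, -1.48 for Mir302b and -1.27 for Mir367. Without the filter on low values, 9.99% of the 19938 genes on the array were lower without overlap, and 0.0502% were lower by 2-fold as well. The within-line differences were alike, at -1.89 in siPRMT1 and -1.72 in siPRMT8 for Mir302a and at -1.54 and -1.46 for Mir302d. In the control arrays Mir302a read 3.04 to 3.56 and Mir302d 4.13 to 4.78, below the knockdown arrays of both kinds. Only Mir302d passed the filter on low values, and the 5 probe sets share 1 locus, so they are not separate observations.

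**Figure D2:**
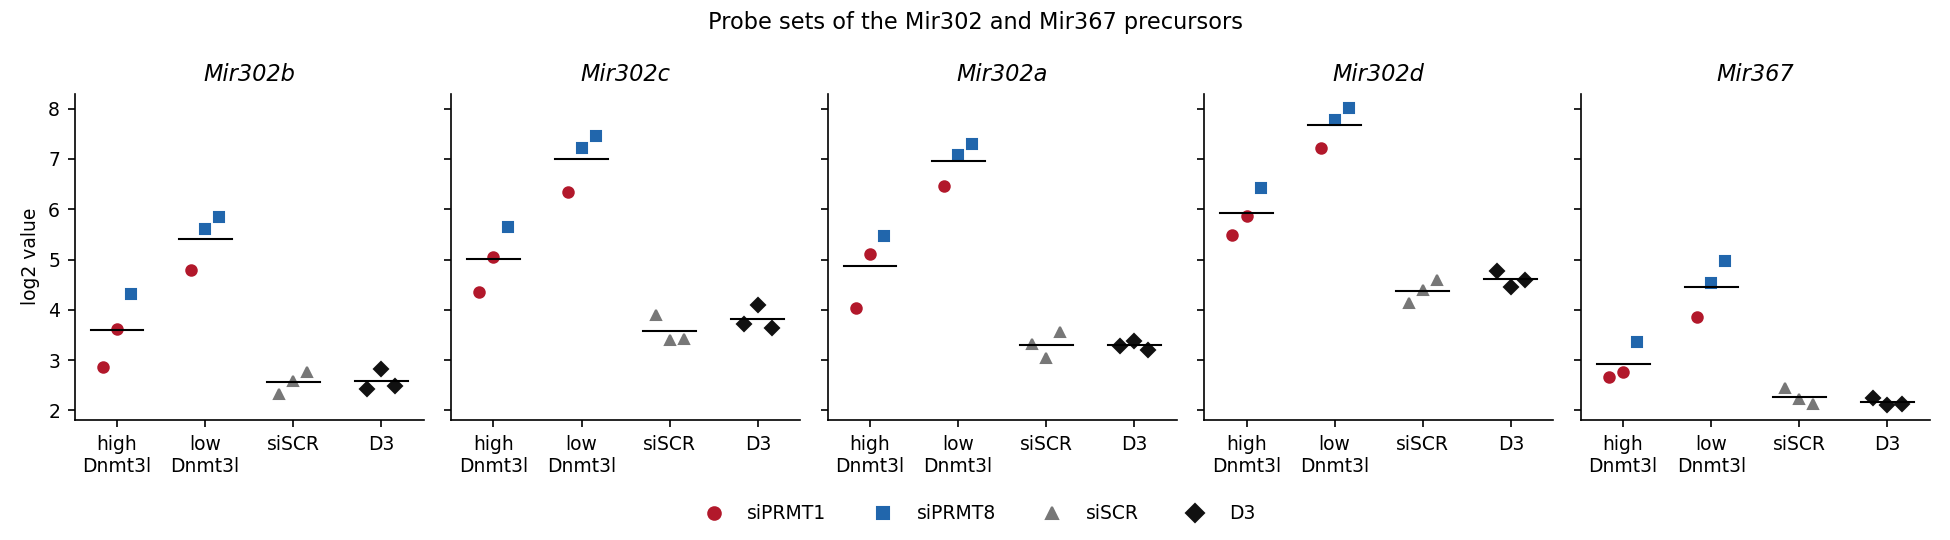
Deposited log2 values (vertical axis, the same for the 5 panels) of the Mir302 and Mir367 precursor probe sets in the high-Dnmt3l, low-Dnmt3l, siSCR and D3 arrays; symbols mark the line and bars the means of 3 arrays. In each panel the low-Dnmt3l arrays are the highest and the control arrays the lowest.

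Neural progenitor genes were in part lower in the high-Dnmt3l arrays. Of 21 that passed the filter, 8 were lower and 0 higher without overlap (median -0.14). Nes, the intermediate filament nestin, read 6.75, 7.16 and 7.19 in the high-Dnmt3l arrays, against 7.60, 7.57 and 7.64 in the low-Dnmt3l arrays. Sox1, an early neural factor, read 7.84, 7.92 and 7.96, against 8.44, 8.23 and 8.33, and Hes5, a Notch target, 7.76, 8.11 and 8.32, against 8.65, 8.47 and 8.48. Pax6 and Vim overlapped, at -0.07 and -0.04, so the list was split. The mean of 8 radial glia and progenitor markers overlapped as well (9.18 to 9.47 in the high-Dnmt3l and 9.42 to 9.52 in the low-Dnmt3l arrays). Of these 8, 2 (Nes and Hes5) were lower and 0 higher without overlap. Of 26 genes of Sonic hedgehog signalling and neural patterning, 9 were lower and 1, Otx2, higher without overlap (median -0.14). Pax3, a factor of the dorsal neural tube, differed by -0.66, and Gli3 and Irx3 by -0.55 each. Of 17 proneural genes, 4 were lower and 0 higher (median -0.16, and 0.02 without siPRMT1 replicate 2, which is the difference within siPRMT8 alone).

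Most neuronal genes overlapped between the kinds, as did 11306 of all 14953 genes, and those that separated were more often higher than lower. Of 31 pan-neuronal genes, 9 were higher and 2 lower without overlap (median 0.09), and of 28 synaptic genes, 8 were higher and 3 lower (median 0.06). The 2 lower pan-neuronal genes were the neurofilaments Nefm, at -0.57, and Nefl, at -0.35. Npy, the neuropeptide Y precursor, was the member of a neuronal list among the 36, reading 8.60, 8.67 and 9.47 in the high-Dnmt3l arrays, against 7.61, 8.15 and 8.43 in the low-Dnmt3l arrays. It was higher still in the D3 arrays (10.82 to 10.99), and among the 36 genes it was the one with a larger difference within siPRMT8 than within siPRMT1 (1.18 against 1.02).

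Mitotic genes lay on the side of Dnmt3l with small differences. Of 29, 22 were higher and 0 lower without overlap (median 0.23), led by Hmmr, a spindle protein (0.59), Anln, the cytokinesis protein anillin (0.56), and Prc1, a midzone crosslinker (0.48). Genes of DNA replication and nucleotide synthesis did not follow them, with 2 of 29 higher and 6 lower (median 0.01), the lower ones including Tyms, thymidylate synthase (-0.35), and Ccne2, cyclin E2 (-0.32). Of 25 epithelial genes, 10 were higher and 0 lower (median 0.25), among them the adhesion genes Cdh3 (0.81) and Cldn4 (0.64), and Cdh1, E-cadherin, overlapped (0.25). Of 21 genes of hypoxia and glycolysis, 9 were higher and 0 lower (median 0.21), with Pfkp, a phosphofructokinase, at 0.65 and Pdk1 at 0.59.

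Markers of other cell types were compared between the kinds. The mean of 5 mesenchyme markers was 7.76 to 7.84 in the high-Dnmt3l arrays and 7.33 to 7.59 in the low-Dnmt3l arrays, and 2 of the 5 separated without overlap. The mean of 4 endothelial markers was 6.59 to 6.92 and 6.41 to 6.46, but without Pecam1, which is also a naive stem cell gene, the mean of the other 3 overlapped (6.50 to 6.68 and 6.43 to 6.58). The means of endoderm markers (7.43 to 7.69 and 7.50 to 7.73) and trophoblast markers (5.88 to 6.06 and 5.82 to 6.08) overlapped. The mean of 5 astrocyte markers, S100b below the filter among them, overlapped too (6.26 to 6.48 and 6.22 to 6.32). Even so, 2 of the 5, Aldh1l1 (0.60) and Gfap (0.33), were higher without overlap. Of 16 genes on the astrocyte list, 5 were higher and 1 lower without overlap (median 0.13). Germ cell markers averaged 6.35 to 7.04 in the high-Dnmt3l arrays and 5.60 to 5.90 in the low-Dnmt3l arrays. This mean includes Dazl and Mael, which were picked as markers of the split, so its separation is no independent support. Ddx4, Sycp3, Dazl, Mael and Dppa3 separated, while Tex101 overlapped and Asz1 was below the filter. The part of any cell type in the differences was not tested.

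**Figure D3:**
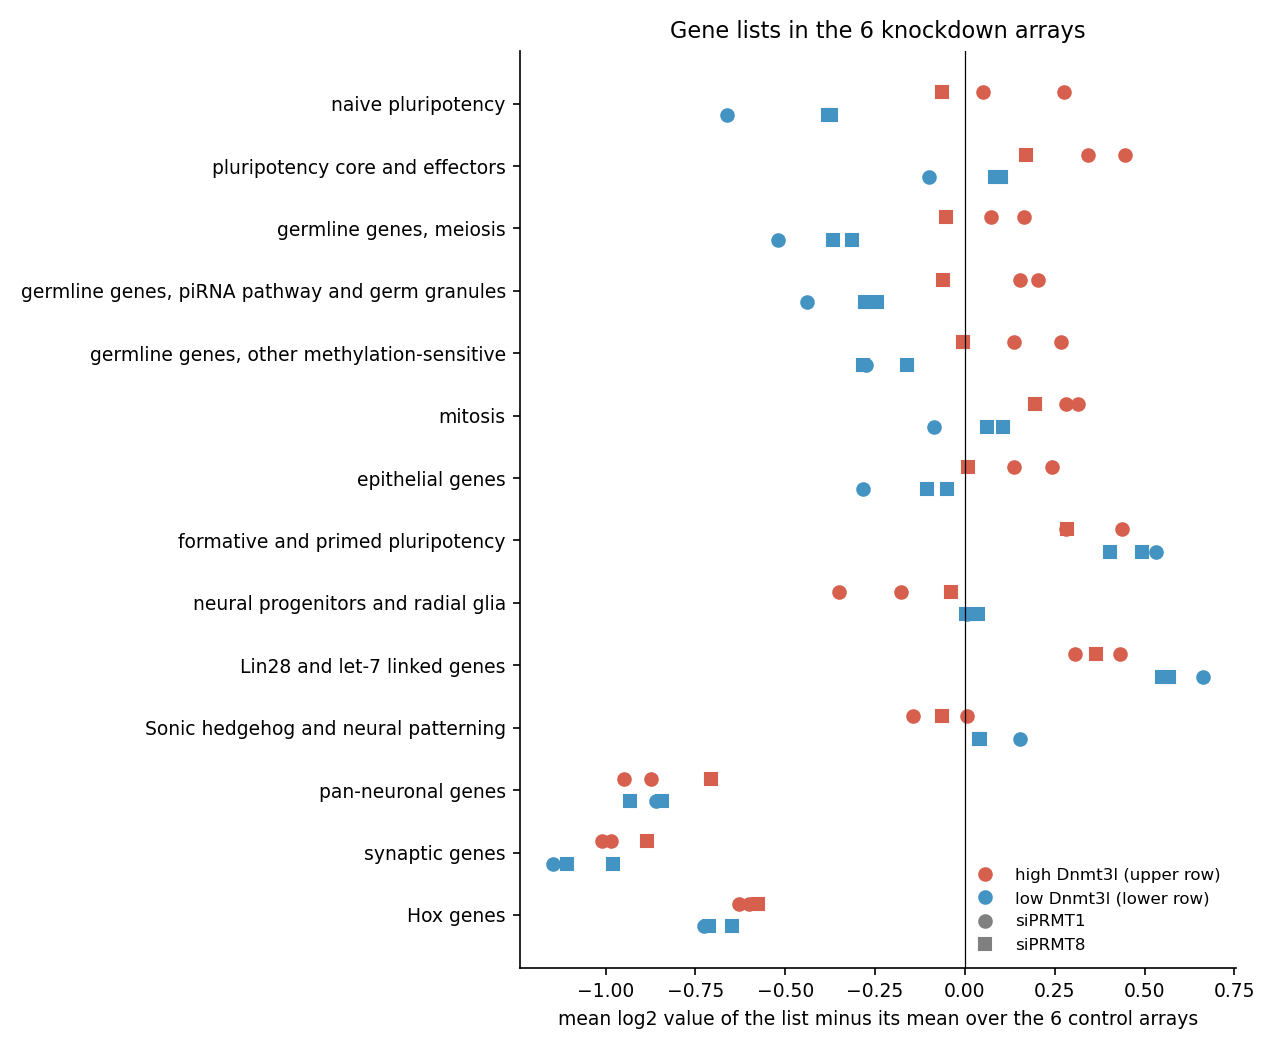
Mean log2 value of 14 gene lists in each of the 6 knockdown arrays, minus the mean of that list over the 6 control arrays (horizontal axis); red marks high-Dnmt3l and blue low-Dnmt3l arrays, circles siPRMT1 and squares siPRMT8. In 11 of the 14 lists the kinds do not overlap, with the high-Dnmt3l arrays above in 8 and below in 3 (Lin28 and let-7, Sonic hedgehog and neural progenitors), and the formative, pan-neuronal and synaptic lists overlap. The pan-neuronal, synaptic and Hox lists lie below 0 in all 6 arrays. The 14 lists were picked from a larger number, so 11 of 14 is not a share over all lists.

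The difference within siPRMT1 was read in siPRMT8, whose arrays share no sample with it. Leaving out Dnmt3l, 135 genes were at least 2-fold higher in the mean of siPRMT1 replicates 1 and 3 than in replicate 2, with both above it. In siPRMT8, replicate 2 lay above replicates 1 and 3 for 132 of these 135, and below both for 0, where 31.5% of all genes lay above. Of 23 genes 2-fold lower in siPRMT1, replicate 2 of siPRMT8 lay below both others for 21 and above both for 1, where 33.1% of all genes lay below. Dnmt3l chose which array was set apart in both lines, so these counts are no independent support for the split. The sizes differed, with a median of 1.21 in siPRMT1 and 0.47 in siPRMT8 for the 135 genes and of -1.08 and -0.41 for the 23. Across the 14953 genes the differences of the lines had a Pearson r of 0.56, given as a description because genes of 1 array are not independent and Dnmt3l chose the arrays of both lines. Of the 36 genes, 35 differed more within siPRMT1.

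**Figure D4:**
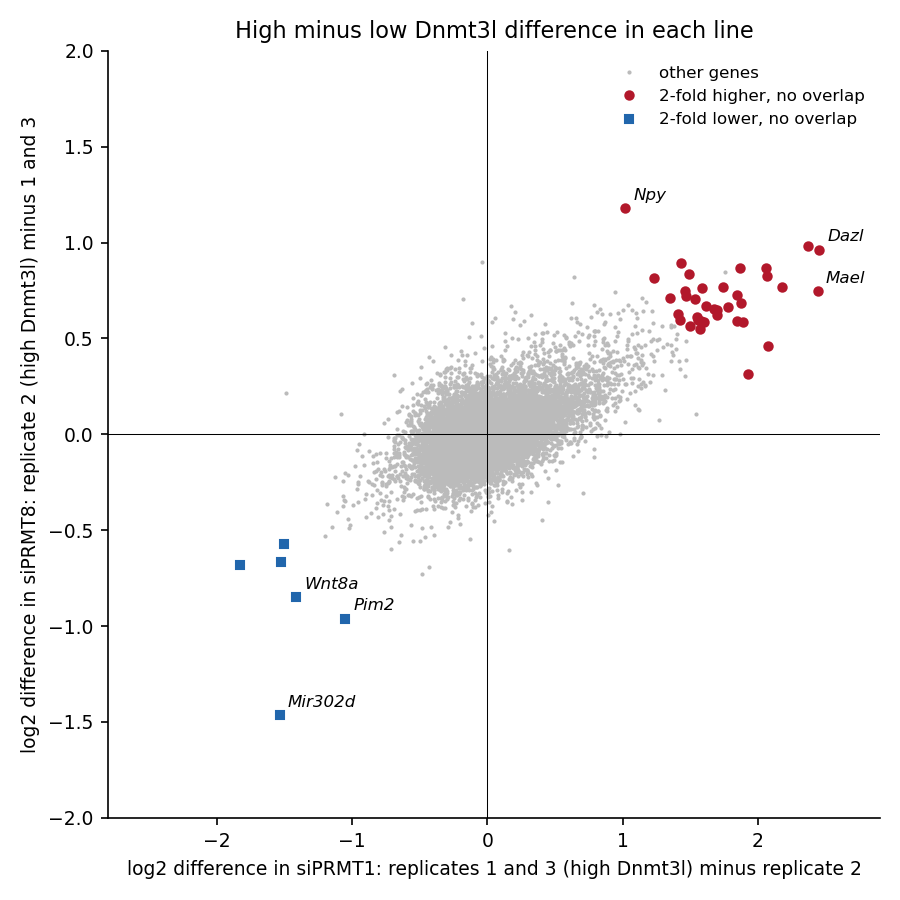
Each point is 1 gene other than Dnmt3l, with its high minus low log2 difference within siPRMT1 on the horizontal axis and within siPRMT8 on the vertical axis; red circles are the 36 genes 2-fold higher and blue squares the 6 genes 2-fold lower without overlap. Red points extend further along the horizontal than along the vertical axis, Npy excepted, and Mir302d and Pim2 lie near equal differences.

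Set beside the control arrays, the low-Dnmt3l arrays departed for the genes that were higher in high-Dnmt3l arrays. The 36 genes had a median of 0.03 in the high-Dnmt3l arrays relative to the mean of the 6 siSCR and D3 arrays, and of -1.10 in the low-Dnmt3l arrays. In 34 of the 36, all 3 low-Dnmt3l arrays lay below all 6 control arrays, where 17.2% of all genes did. For the 6 lower genes the medians relative to the controls were 1.11 in the high-Dnmt3l arrays and 2.13 in the low-Dnmt3l arrays. The 3 low-Dnmt3l arrays exceeded all 6 controls in 6 of 6 (14.6% of all genes). The 3 high-Dnmt3l arrays did so in 3 of the 6 (2131 of all 14952 genes besides Dnmt3l). Without siSCR replicate 1 these medians were 0.07 and -1.06 for the 36 genes and 1.04 and 2.12 for the 6. The counts for the low-Dnmt3l arrays were then 34 and 6. Both sets were picked by where the low-Dnmt3l arrays lay against the high ones. The shares over all genes are therefore no matched baseline for these counts.

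The arrays that the rule did not use varied along some of the same genes. Among the D3 arrays Dnmt3l read 9.07, 8.40 and 9.08 in replicates 1 to 3, and Dazl read 7.61, 6.84 and 7.61. Smc1b read 7.09, 6.52 and 7.10. In these 3 genes D3 replicate 2 was the lowest D3 array. As the D3 array with the lowest Dnmt3l, it is set against replicates 1 and 3 below. Dnmt3l thus sorts the arrays here as well, so the ranks and counts below are no independent support for the split. By the difference of D3 replicates 1 and 3 over replicate 2, Ankrd1, Dazl, Gadd45b, Tns4 and Dnmt3l ranked 1, 2, 3, 4 and 5 from the top of the 14953 genes, with differences of 0.85, 0.76, 0.70, 0.67 and 0.67, and Smc1b ranked 9 with 0.58. From the bottom, Gm32061, Fndc3c1, Prtg and Igdcc3 ranked 1, 2, 3 and 4, with differences of -1.40, -1.09, -0.66 and -0.63. Ankrd1, Gadd45b, Tns4 and Fndc3c1 were not named by the rule and are given for their ranks. D3 replicate 2 was the lowest D3 array for 32 of the 36 genes, where 36.2% of all genes were lowest there, and the highest for 5 of the 6 (33.3%). The Mir302d probe set did not follow, at 4.78, 4.46 and 4.60. Across genes the D3 difference had a Pearson r of 0.27 with the siPRMT1 difference and 0.23 with the siPRMT8 difference, again as a description. In siSCR, replicate 1 had the highest Dnmt3l (9.46, 9.13 and 8.83 in replicates 1 to 3) and was the highest for 30 of the 36 genes, beside 46.3% of all genes in this array that stood apart.

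**Figure D5:**
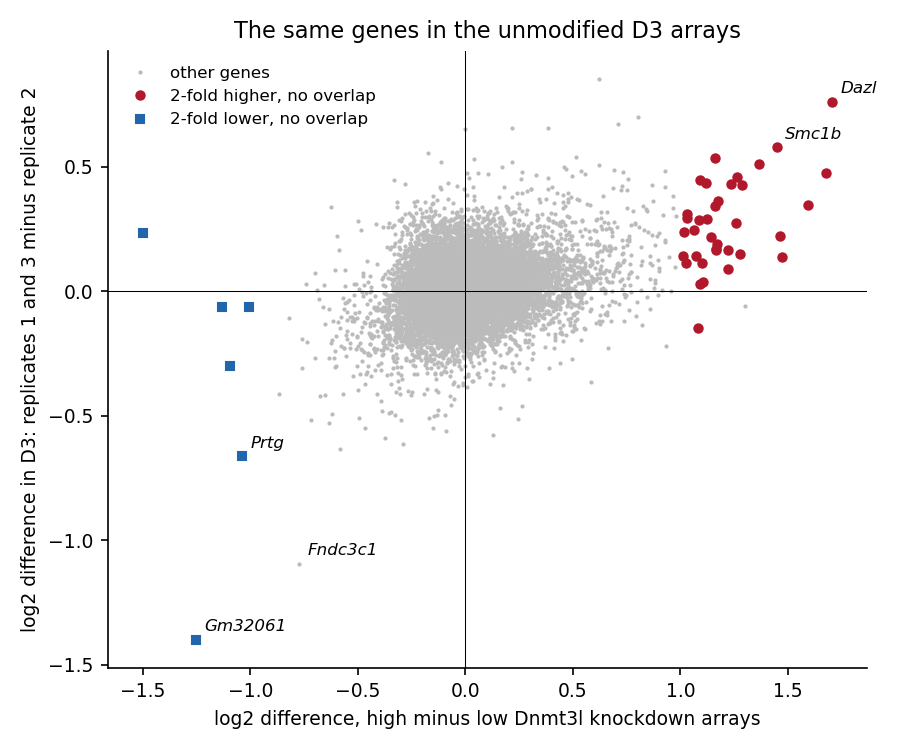
Each point is 1 gene other than Dnmt3l, with its high minus low Dnmt3l difference in the knockdown arrays on the horizontal axis and, in D3, the difference of replicates 1 and 3 minus replicate 2 on the vertical axis, both on the log2 scale. Most red points (2-fold higher) lie above 0 on the vertical axis, and Gm32061, Fndc3c1 and Prtg lie lowest.

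The promoters of the group were compared with all genes as a description. Of the 36 genes, 26 had a promoter in the RefSeq table, with a median of 12 CG and a range of 2 to 30, and the 11 on a germline list had a median of 20 (5 to 30). The E-box CACGTG, a palindrome bound by Max partners, occurred in 5 of the 26 windows, among them Mael and Sycp3, and in 11.1% of the 11778 tested genes with a window. The letters GCGGGAA, searched on both strands and part of sites bound by E2f proteins, occurred in 8 of the 26, Sycp3, Smc1b and Meioc among them, and in 9.22% of the tested genes. Neither occurred in the 3 of the 6 lower genes with a window. Genes with several promoters in the table count once, by any match and by the highest CG count, and a match is not evidence of binding.

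siPRMT1 was compared with siPRMT8 by limma, since the labels define these groups whatever the Dnmt3l level. In this fit 23 of 14953 genes passed an adjusted p of 0.05 (0.154%), 13 higher and 10 lower in siPRMT1, and 1824 had an unadjusted p under 0.05. Of the 36 genes higher in high-Dnmt3l arrays 0 passed limma's test, and of the 6 lower ones 0 passed. At an unadjusted p under 0.05 were 1 of the 36 and 1 of the 6. These genes were picked for differences between replicates of a line, which widen the spread that limma uses. Their counts therefore cannot show that the lines do not differ in them. Prmt1 was lower in siPRMT1 by limma, with a log2 difference of -1.49 (SE 0.0885, adjusted p = 2.4e-05) and all 3 siPRMT1 arrays below all siPRMT8 arrays. Dazl was not called, with a log2 difference of 1.05 (SE 0.552, limma adjusted p = 0.475) and overlapping arrays, beside a difference of 2.45 between replicates of siPRMT1. The number of calls depended on siPRMT1 replicate 2, the low-Dnmt3l array of that line: without it, 862 genes passed. It was 6 without siPRMT1 replicate 1, 2 without siPRMT1 replicate 3, 9, 3 and 2 without siPRMT8 replicates 1, 2 and 3 in turn, and 75 without siSCR replicate 1. With the Dnmt3l split as a term of the fit, 51 genes passed, 22 of them shared with the 23.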

How the data were processed

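Gene expression was measured on 12 1-colour whole-transcript arrays, 3 per group. The authors deposited log2 values of 35556 probe sets, a scale read from the values themselves, which span 0.97 to 13.54. Of their background correction and normalisation nothing is given in the sources used here, and no step was added. Probe sets with 1 gene symbol (21789) were used, symbols were updated by gene ID through RefSeq's GRCm38.p6 table (21698 matched), and the probe set with the highest mean stood for each of 19938 genes. The lowest 25.0% by mean over the 12 arrays (below 5.43) were left out, which left 14953 genes. The 12146 probe sets without a symbol and the 1621 with several were not used. No level can be set against that of another probe set, and the number of arrays limits the precision.

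The members, lists and tests were chosen with earlier results of these data known. High and low arrays were compared by differences and overlap only. siPRMT1 was compared with siPRMT8 by limma 3.58.1 in R 4.3.3, in 1 model of 4 group means with Benjamini-Hochberg adjustment. On simulated data for this comparison it recovered 73.1% of 1.5-fold and 97% of 2-fold changes among 14953 genes, with 10 false calls. These figures describe the simulated data only. In the real arrays Dazl, with a log2 difference of 1.05 (SE 0.552) between the lines, was not called. Leaving out 1 knockdown array gave between 2 and 862 calls. The simulation therefore cannot give the recovery or the false calls for the real arrays. Named genes were Dnmt3l, Dazl, Mael, Prmt1, Prmt8, the 12 genes with the largest separated difference of at least 2-fold on each side, up to 4 separated members of each list per side, and cell type markers, leaving out predicted genes, small RNAs and some families. Others are marked. Alternatives were quantile normalisation, no filter, the mean of all probe sets, the plain difference, another fold threshold, a replicate block, other variance and sample choices, and leaving out each array.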

Additional observations from a re-analysis of the deposited data

Results flagged for a closer look

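For 8 named genes the high minus low difference ran in opposite directions in the 2 lines, with every high-Dnmt3l array on one side of the low ones within siPRMT1 and on the other side within siPRMT8. The difference between the lines was not tested, and each line has a single array of one kind. How many of all 14953 genes showed such a reversal was not counted. In siPRMT8 alone, replicate 2 lay above both other arrays for 31.5% of all genes, so the 8 are listed as a description only. Aqp4 lay near the filter value of 5.43, at 5.25 to 5.58 in the 6 arrays. The siPRMT1 difference minus the siPRMT8 difference, on the log2 scale, was -0.79 for Tubb3, the neuronal tubulin (-0.67 in siPRMT1 and 0.12 in siPRMT8), -0.34 for Map2, a dendritic microtubule protein (-0.17 and 0.17), -0.27 for Elavl3, a neuronal RNA-binding protein (-0.14 and 0.13), and -0.52 for Dcx, doublecortin of migrating neurons (-0.24 and 0.28). It was -0.63 for Slc1a2, a glial glutamate transporter (-0.54 and 0.10), -0.39 for Aqp4, a water channel of astrocytes (-0.08 and 0.31), -0.16 for Vim, vimentin (-0.12 and 0.04), and -0.23 for Col1a1, a collagen chain (-0.10 and 0.12). In all 8 the siPRMT1 difference was negative and the siPRMT8 difference positive.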

How the results depend on the processing

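The 37 higher (with Dnmt3l) and 6 lower genes were 36 and 6 after quantile normalisation, 38 and 10 with no filter, 37 and 6 with the mean of probe sets, 33 and 5 by the plain difference of means, and 212 and 36 at 1.5-fold. Leaving out 1 knockdown array at a time gave 2 to 131 higher (Dnmt3l again counted) and 1 to 23 lower genes. The lowest counts came without siPRMT1 replicate 2, by the difference within siPRMT8 alone. The highest came without siPRMT8 replicate 2, by the difference within siPRMT1 alone. The replicate block left 37 and 6. The 23 genes that differed between siPRMT1 and siPRMT8 by limma were 26 after quantile normalisation, 17 with no filter, 27 with a trended robust variance, 2 with only the 6 knockdown arrays in the fit, 51 with the Dnmt3l split as a term, 13 when at least 1.5-fold was asked as well, and 75 without siSCR replicate 1, an alternative chosen after seeing the data. Leaving out 1 knockdown array gave 2 to 862. With the replicate block 14 were called, 12 of them shared. Same-numbered siPRMT1 and siPRMT8 arrays had deviations from their group means that correlated across genes at -0.416, -0.564 and 0.0417. Each number holds 1 high-Dnmt3l and 1 low-Dnmt3l array, which by itself pushes these correlations down. Whether the numbers pair the arrays can therefore not be told from them.

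No named gene with separated arrays changed sign under these alternatives. List medians changed sign in 21 of the recomputed values, 10 of them without siPRMT1 replicate 2, all for lists with a median below 0.2 in size, the largest being the proneural genes at -0.16. Differences of named genes moved by more than their residual spread in 274 of the recomputed values and stayed within it in 1849, and list medians in 59 and 381. Most of those moves came from leaving out siPRMT1 replicate 2 or siPRMT8 replicate 2, each the only array of its kind in its line. The difference was then that of the other line alone. With 3 arrays of each kind, no background level and no recorded batch, whether the split follows handling of the cultures was not tested.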
